A study of Homo sapiens with 12 samples.

Results

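The genes described here are TNFSF10, TNFRSF10A, TNFRSF10B, TNFRSF10C, TNFRSF10D, FAS, CASP8, CASP10 and CFLAR, the ligand, receptors, initiator caspases and caspase regulator of the TRAIL and FAS death pathways. All 9 were taken by symbol from the authors' count table, which lists 43769 genes, and all 9 were found there. The set was drawn up with earlier results of these data known. TNFRSF10D was picked on its lower counts with IFNγ, so its difference with IFNγ is described without a test wherever it appears.

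The RNA came from SK-N-DZ, a neuroblastoma cell line, and every group was the same clone carrying a doxycycline-inducible short hairpin RNA against ARID1A, a subunit of the SWI/SNF chromatin remodeling complex. The control group (C) had neither agent and is labelled WT. The IFNγ group (I), also labelled WT, was given IFNγ for 24 h. The doxycycline group (D) is labelled shARID1A and was given doxycycline for 4 days, and the DI group, labelled shARID1A, was given doxycycline for 4 days with IFNγ for 24 h. The 4 days are the labels' value, and the paper's figure legend for these libraries gives a shorter doxycycline time. Each group had 3 replicates. No library had doxycycline without the hairpin vector, so effects of the antibiotic and of the hairpin cannot be told apart. The labels do not say that replicates were separate cultures, so p-values measure only the spread between these samples.

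Total counts ran from 16469832 to 21790869 per library, at which 3 counts, taken as the detection floor, equal 0.135 to 0.187 CPM (counts scaled to a common library size). Without a block, ARID1A did not pass the threshold in D vs C (log2 fold change −0.09, SE 0.11, edgeR adjusted p = 0.788) or in DI vs I (−0.44, SE 0.11, edgeR adjusted p = 0.115). In DI vs I it passed with the replicate number as a block (edgeR adjusted p = 0.0111) and by DESeq2 (adjusted p = 0.00453). Its DI and I groups did not overlap, as for 16.6% of all genes tested. In D vs C it passed with neither (0.509 by edgeR with the block, 0.766 by DESeq2). The groups are therefore named by their labels. The IFNγ-induced transcription factor gene IRF1 was higher in both comparisons with IFNγ, by 7.58 (I vs C) and 7.29 (DI vs D) on the log2 scale. The 5 neuroblastoma markers reported (PHOX2A, HAND2, GATA3, MYCN and DBH) were above the floor in every library, with summed levels of 3140 to 4035 CPM. EdgeR called none of these 5 without a block, while with the replicate number as a block 4 of them were called in some comparison. Of all 15828 genes tested, the block called 953 for I against C and 706 for DI against D. The block called 2200 for D against C and 1658 for DI against I. PHOX2A was higher with IFNγ (log2 fold change 0.40 in I vs C and 0.36 in DI vs D, block adjusted p = 0.0115 and 0.0274 by edgeR, and 0.000429 and 0.00300 by DESeq2). MYCN was lower with IFNγ (−0.39 and −0.45 with the block, edgeR adjusted p = 0.00902 and 0.00419). HAND2 was lower with doxycycline (with the block −0.60 against C, edgeR adjusted p = 0.00603, and −0.51 for DI against I, edgeR adjusted p = 0.0151), as was DBH in D vs C (−1.26 with the block, edgeR adjusted p = 0.0433). DESeq2 did not call MYCN, HAND2 or DBH in these comparisons, and the part of these markers in the members' values was not tested. Of 7 markers of other cells, CD3E and PECAM1 were at 0 in every library. COL3A1 (5.49 to 18.9 CPM) and EPCAM were above the floor in every library. COL1A1 ran from 0 counts (I replicate 3) to 97 (D replicate 2), and CD14 from 3 to 17. PTPRC had 16 counts in DI replicate 3 and at most 3 in any other library. The summed level of all 7 was 7.07 to 15.8 CPM in I against 11.2 to 19.8 CPM in C. The same sum was 11.98 to 26.7 CPM in D and 10.3 to 18.1 CPM in DI. In bulk RNA, fewer cells expressing a gene and less RNA per cell cannot be told apart.

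As background, TRAIL (TNFSF10) and the FAS ligand are proteins of the TNF family that can kill tumor cells and that T cells and NK cells use against their targets. Binding to the receptors DR4 (TNFRSF10A), DR5 (TNFRSF10B) or FAS gathers the adaptor FADD and the initiator caspases 8 and 10, which then activate executioner caspases. The receptors DcR1 (TNFRSF10C) and DcR2 (TNFRSF10D) bind TRAIL without passing on a full death signal and are called decoys, and c-FLIP (CFLAR) competes with caspase 8 for FADD. Loss of CASP8 expression is well known in neuroblastoma, particularly in tumors with amplified MYCN, and CASP8 and FAS are known IFNγ-responsive genes in several cell types.

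Promoter windows from RefSeq (GRCh38.p14, 250 bases before to 50 after an annotated start) were at hand for 1 start of TNFSF10, 3 of FAS, 3 of CASP8 and 4 of CFLAR. No windows were at hand for CASP10 or for the 4 TRAIL receptors, so their promoters were not searched, and protein sequences were not used. Each window was searched on both strands for TTCNNNGAA, the gamma-activated site of IFNγ-responsive genes, and for the core of the interferon-stimulated response element bound by IRF proteins (2 GAAA blocks with any 2 bases between them). Of all 35116 windows of that length, 7.66% held the former and 3.57% the latter. The first start of CASP8, TNFSF10 and FAS is printed here because CASP8 and FAS had the highest fitted differences with IFNγ among the members and TNFSF10 had nearly all of its counts in libraries with IFNγ. Each sequence runs from 250 bases before the start to 10 bases after it, read 5′ to 3′ on the gene's own strand, with motif matches in capitals.
CASP8, chr2:201233213-201233472, plus strand: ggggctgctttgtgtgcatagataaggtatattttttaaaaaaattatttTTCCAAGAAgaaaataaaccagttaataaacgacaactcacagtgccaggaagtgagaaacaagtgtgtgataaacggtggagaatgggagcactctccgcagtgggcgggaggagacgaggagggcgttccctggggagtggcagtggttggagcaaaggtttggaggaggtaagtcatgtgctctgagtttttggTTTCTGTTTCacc
TNFSF10, chr3:172523421-172523680, minus strand: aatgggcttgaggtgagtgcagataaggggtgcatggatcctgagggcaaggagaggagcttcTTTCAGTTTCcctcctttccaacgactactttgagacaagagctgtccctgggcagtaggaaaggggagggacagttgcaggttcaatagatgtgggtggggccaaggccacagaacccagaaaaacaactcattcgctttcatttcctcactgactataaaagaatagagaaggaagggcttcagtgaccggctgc
FAS, chr10:88990548-88990807, plus strand: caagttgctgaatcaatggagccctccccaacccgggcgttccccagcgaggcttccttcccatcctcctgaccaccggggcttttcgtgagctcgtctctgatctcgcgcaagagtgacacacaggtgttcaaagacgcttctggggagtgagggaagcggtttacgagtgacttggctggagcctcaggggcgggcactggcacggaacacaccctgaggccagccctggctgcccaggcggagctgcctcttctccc
The CASP8 window held a gamma-activated site motif at −200 to −192 from the start and a response element core that spans the start itself. The TNFSF10 window held a response element core at −187 to −178. No match was found in the other 2 CASP8 windows, the 3 FAS windows or the 4 CFLAR windows. A match of this kind describes the letters only, and its part in the counts was not tested.

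**Figure D1:**
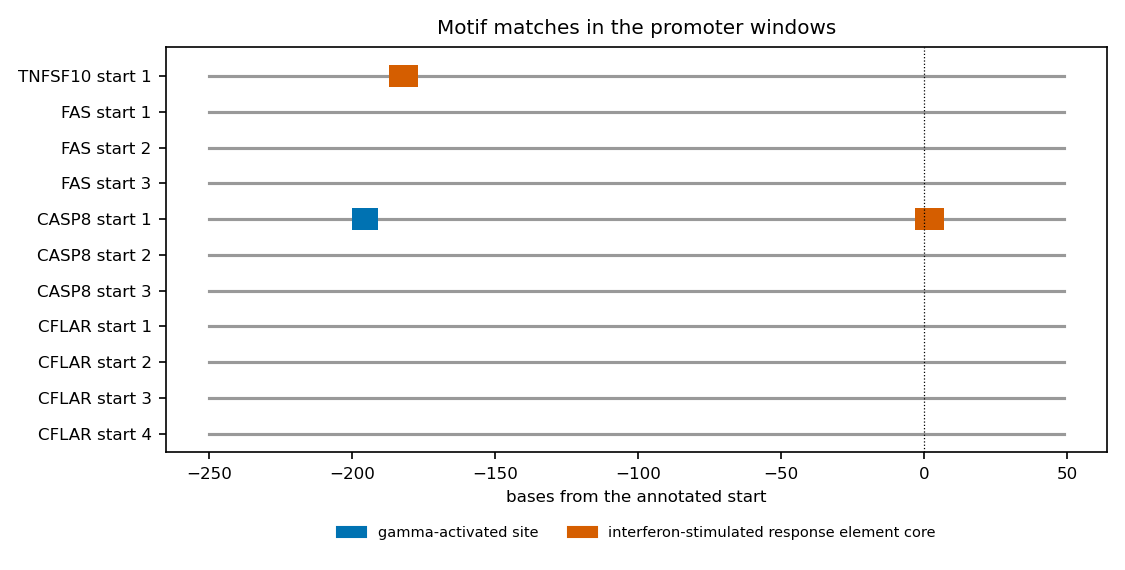
Motif matches in the 11 promoter windows of 4 members, by distance in bases from the annotated start (dotted line). Grey lines are the windows, blue boxes the gamma-activated site motif and orange boxes the response element core. Only the first CASP8 start and the TNFSF10 start hold a match.

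The members lie in a few places in the genome (GRCh38, GENCODE release 29). TNFRSF10B, TNFRSF10C, TNFRSF10D and TNFRSF10A share 205.0 kb of chromosome 8, from 23020133 to 23225126. CFLAR, CASP10 and CASP8 follow each other in that order on the plus strand of chromosome 2, within 172.0 kb from 201116104 to 201287711. TNFSF10 is on chromosome 3 (172505508 to 172523507, minus strand) and FAS on chromosome 10 (88990582 to 89015785, plus strand). The receptor genes arose by duplication, but no run of 50 bases is shared between the annotated transcripts of any 2 members, so an exact match of 50 bases belongs to 1 member at most.

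Of the 9 members, 5 passed the filter on low counts and were tested (TNFRSF10B, TNFRSF10D, FAS, CASP8 and CFLAR), and 4 did not pass (TNFSF10, TNFRSF10A, TNFRSF10C and CASP10). The filter asks for a level of about 0.519 CPM in at least 3 libraries. TNFRSF10B and TNFRSF10D were over that level in 12 of 12 libraries and FAS in 10, of which 4 had no IFNγ. CASP8 was over it in 9 libraries, of which 3 were D libraries and none were C libraries. CFLAR was over it in 8 libraries, 2 of each group.

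The ligand TNFSF10 was close to undetected. It had 0 counts in all 3 C libraries and 0, 0 and 1 in D. It had 5, 0 and 14 counts in I and 6, 5 and 0 in DI. Thus 1 count fell in the libraries without IFNγ, 19 in I and 11 in DI, but 1 library of I and 1 of DI were at 0. Without the filter its adjusted p by edgeR was 0.568 in I vs C and 1 in DI vs D.

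The death receptor TNFRSF10A (DR4) had 1 count in the 12 libraries together, in I replicate 2. A total of 0 in a group of 3 libraries allows up to 3 counts, so its level was below what this depth can measure. The decoy TNFRSF10C had 7 counts in D replicate 2, 1 in I replicate 3, 2 and 4 in DI replicates 1 and 2, and 0 in the other libraries. It also overlaps a long noncoding RNA gene on the same strand (AC107959.4, 50 counts in all), so its few reads are not certain to be its own. CASP10 had 1 count in I replicate 2 and 1 in DI replicate 2. These 4 low genes gave no comparison that the counts could carry.

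The death receptor TNFRSF10B (DR5) was the highest member in every group. Replicates 1 to 3 had 82.1, 107 and 93.3 CPM in C, and 83.2, 107 and 92.9 CPM in D. They had 98.3, 123 and 107 CPM in I, and 98.7, 141 and 82.1 CPM in DI. All 4 groups overlapped, and replicate 2 was the highest in each group. The gene overlaps RHOBTB2 on the opposite strand (26.1 to 45.7 CPM over the 12 libraries), and whether the counting used strand is not given in the sources used here.

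The decoy TNFRSF10D (DcR2) was the only other TRAIL receptor with more than a few counts. Replicates 1 to 3 had 22.2, 12.2 and 25.0 CPM in C, and 11.3, 12 and 9.20 CPM in D. They had 6.23, 3.60 and 5.66 CPM in I, and 4.46, 6.05 and 3.29 CPM in DI. Every library with IFNγ was below every library without it, which is the pattern it was picked on. C and D did not overlap either, but C replicate 2 lay only just above the highest D library.

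The death receptor FAS was low without IFNγ. Replicates 1 to 3 had 0.737, 0.149 and 0.810 CPM in C, and 0.905, 0.103 and 1.45 CPM in D. They had 5.98, 4.41 and 5.34 CPM in I, and 6.62, 2.92 and 6.80 CPM in DI. Every library with IFNγ was above every library without it, and replicate 2 was the lowest in each group, at 3 counts in C and 2 in D.

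The initiator caspase gene CASP8 was near the floor in the controls. Replicates 1 to 3 had 0.307, 0.496 and 0.125 CPM in C (5, 10 and 2 counts), and 0.667, 0.621 and 0.579 CPM in D (14, 12 and 10 counts). They had 3.81, 1.74 and 3.61 CPM in I, and 2.31, 1.95 and 3.92 CPM in DI. Every library with IFNγ was above every library without it, and the D libraries were above the C libraries in CPM, although C replicate 2 and D replicate 3 both had 10 counts.

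CFLAR, the caspase 8 competitor, was also low. Replicates 1 to 3 had 1.41, 1.39 and 0.0623 CPM in C, and 0.762, 1.55 and 0.289 CPM in D. They had 1.98, 2.29 and 0.419 CPM in I, and 1.03, 1.95 and 0.405 CPM in DI. Replicate 3 was the lowest in every group, with 1, 5, 8 and 9 counts, and the groups overlapped throughout.

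**Figure D2:**
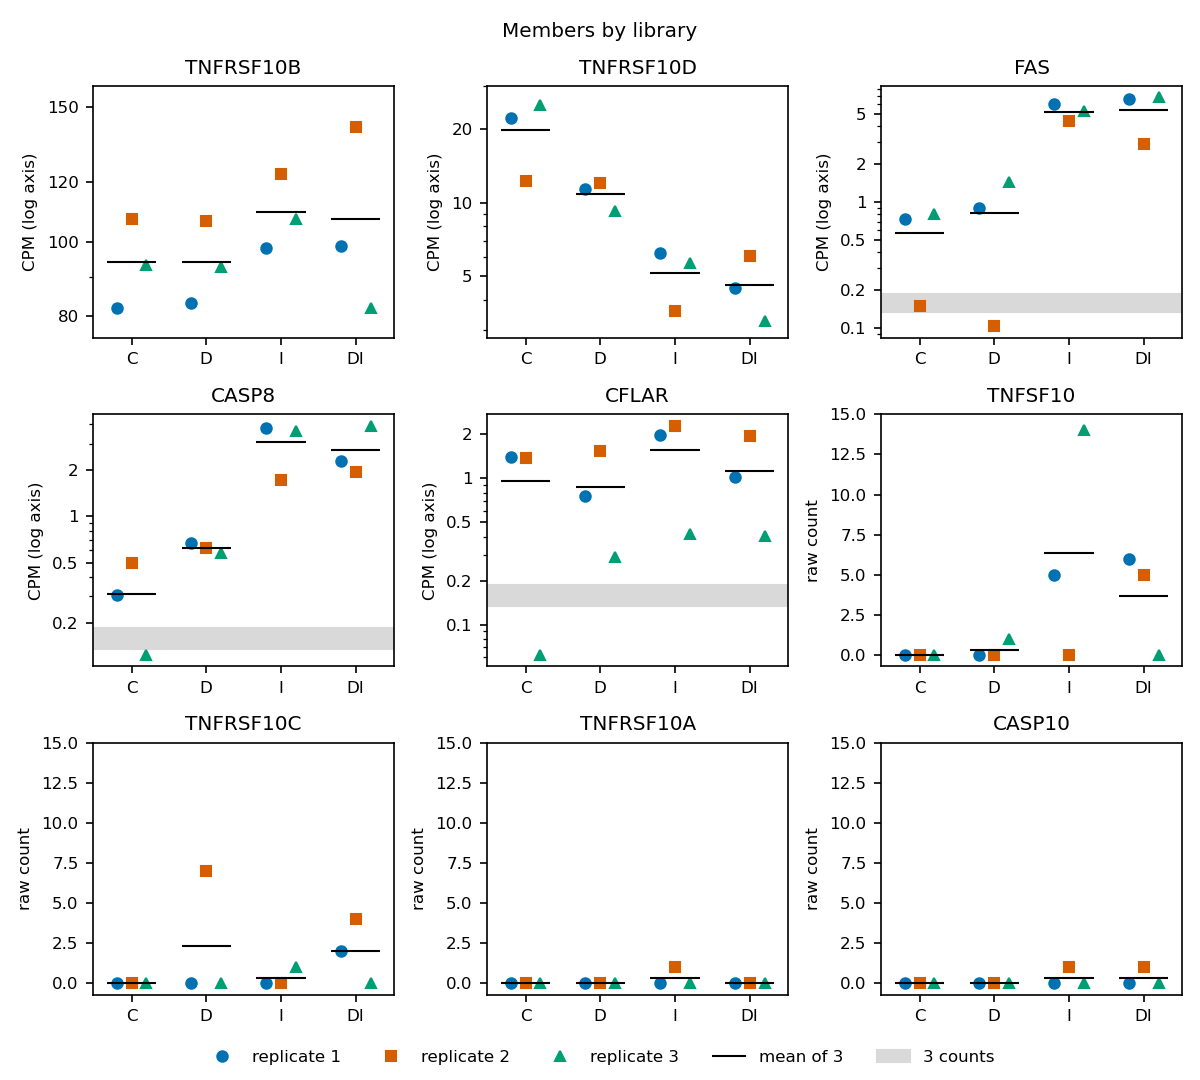
Levels of the 9 members in the 12 libraries, by group, with colors and symbols for the replicate number and a line at the mean of 3. The tested members are in CPM on log axes that differ between panels, with a grey band at 3 counts in the FAS, CASP8 and CFLAR panels, and the 4 members that were not tested are in raw counts. FAS and CASP8 sit higher, and TNFRSF10D lower, in every library with IFNγ, while 3 of the 4 low genes have at most 7 counts in any library and TNFSF10 has at most 14.

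Levels of different genes were compared per kb of exon, using all annotated exons of a gene. In C the order was TNFRSF10B (18.3 ± 2.45 CPM per kb, SD, n = 3), TNFRSF10D (5.60 ± 1.90), FAS (0.133 ± 0.0852), CASP8 (0.0427 ± 0.0257) and CFLAR (0.0424 ± 0.0343). TNFRSF10B and TNFRSF10D stood apart from their neighbours by more than their SDs, while the ranges of 1 SD around the means of FAS, CASP8 and CFLAR overlapped. In I the order was TNFRSF10B (21.2 ± 2.40), TNFRSF10D (1.46 ± 0.391), FAS (1.23 ± 0.185), CASP8 (0.422 ± 0.157) and CFLAR (0.0693 ± 0.0445). The ranges of 1 SD around the means of TNFRSF10D and FAS then overlapped, and FAS stood above CASP8, and CASP8 above CFLAR, by more than their SDs. CFLAR has 22529 bases of annotated exon, the most of the members, which lowers its value per kb if most of its transcripts are shorter. Within single libraries, the TNFRSF10D level per kb was 0.166 to 0.394 of the TNFRSF10B level in C and 0.144 to 0.199 of it in D. The same ratio was 0.0427 to 0.0924 in I, and 0.0583 to 0.0659 in DI.

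The comparison I vs C asked which members IFNγ changed without doxycycline. CASP8 rose. Its log2 fold change was 3.25 (SE 0.52, edgeR adjusted p = 0.00463), with every I library above every C library. FAS had a log2 fold change of nearly the same size, 3.22, with a wider error (SE 0.77, 95% interval 1.52 to 4.92). It did not pass the threshold without a block (edgeR adjusted p = 0.0654) but did with the replicate number as a block (edgeR adjusted p = 0.00119). TNFRSF10B (0.21, SE 0.19, 95% interval −0.20 to 0.63) and CFLAR (0.70, SE 0.95, 95% interval −1.40 to 2.79) did not pass either, with adjusted p = 1.00 for both by edgeR. TNFRSF10D was lower by a fitted log2 difference of −1.94 (SE 0.32), which is the difference it was picked on and has no test. Thus 1 of the 4 members tested here was called, against 2.21% of all genes tested, and CASP8 and FAS were 2 members whose groups did not overlap, against 15.1% of all genes tested. The call for CASP8 held in all 12 fits that left out 1 library, with adjusted p from 0.00441 to 0.0335, and over the other alternatives its adjusted p was 1.52e-06 to 0.0387.

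The FAS result in I vs C depended on the fit. With replicate number as a block, the log2 fold change was 3.41 and the adjusted p by edgeR was 0.00119. Over the alternatives that kept all libraries of both groups, its adjusted p ran from 0.000491 (DESeq2) to 0.0682. FAS passed with the block, where 6.02% of all genes were called, by DESeq2 (3.54% of genes with an adjusted p), without the filter (1.33%) and with only the libraries of C and I (2.22%). The fits without 1 library gave 0.0118 to 0.208, and the one value under 0.05 was without D replicate 2. FAS overlaps ACTA2 on the opposite strand, which had 0.623 to 0.844 CPM in C, 0.984 to 2.91 CPM in D, 1.52 to 2.23 CPM in I and 1.28 to 3.74 CPM in DI. ACTA2 was thus higher in I than in C without overlap, while D and DI overlapped. The part of ACTA2 reads in the FAS counts was not tested.

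The comparison DI vs D asked the same with doxycycline present. Without a block, no member tested passed the threshold by edgeR (0 of 4, against 1.72% of all genes tested). FAS and CASP8 had an unadjusted p under 0.05 (2 of 4, against 6.24% of all genes tested). Both were called by DESeq2 (2 of 4, against 2.8% of genes with an adjusted p) and with the replicate number as a block, as given below. CASP8 had a log2 fold change of 2.12 (SE 0.48, 95% interval 1.06 to 3.18, edgeR adjusted p = 0.0615). FAS had 2.73 (SE 0.74, 95% interval 1.09 to 4.37, edgeR adjusted p = 0.154). Their DI and D groups did not overlap, which was so for 9.54% of all genes tested. With the replicate number as a block, the adjusted p by edgeR was 0.0245 for CASP8 and 0.00351 for FAS, and 4.46% of all genes were called. Over alternatives that kept all libraries of both groups, the adjusted p ran from 0.00252 to 0.0736 for CASP8 and from 0.00351 to 0.429 for FAS. Leaving out C replicate 2 or C replicate 3 brought CASP8 under the threshold, with adjusted p of 0.0461 and 0.0341, while FAS had 0.106 to 0.472 without single libraries. TNFRSF10B (0.19, SE 0.19, adjusted p = 1.00 by edgeR) and CFLAR (0.36, SE 0.96, adjusted p = 1.00 by edgeR) did not pass. TNFRSF10D was lower by a fitted log2 difference of −1.24 (SE 0.32), described without a test.

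**Figure D3:**
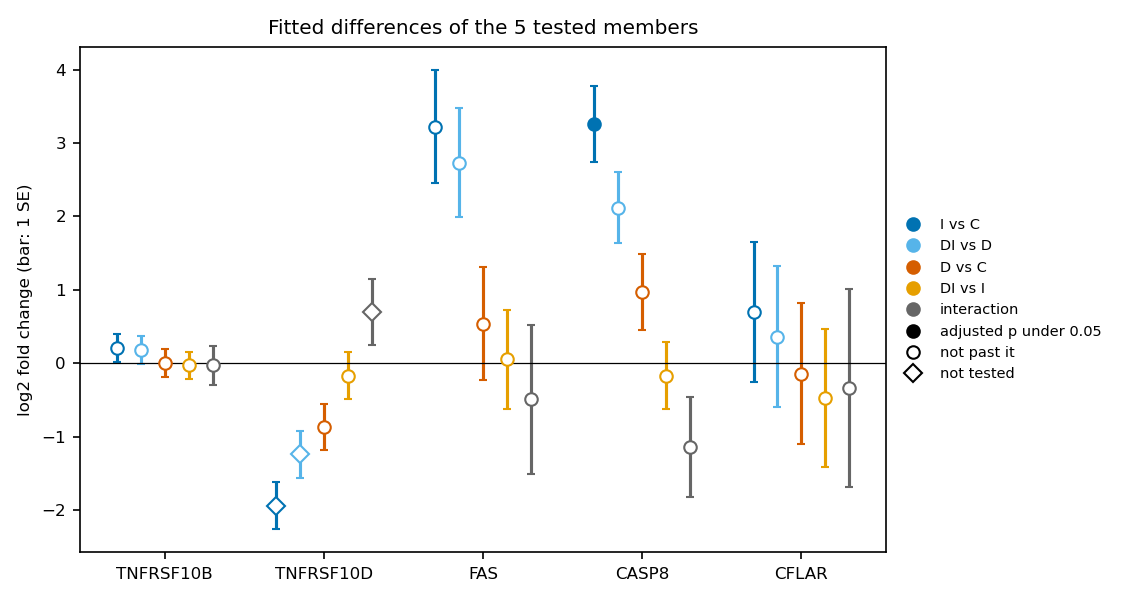
Fitted log2 fold changes of the 5 tested members in the 4 comparisons and their interaction, with bars of 1 SE. Filled circles passed an adjusted p of 0.05 by edgeR without a block, open circles did not, and open diamonds were not tested. CASP8 in I vs C is the one filled circle, at 3.25, and TNFRSF10D is the one member below 0 in both comparisons with IFNγ.

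Libraries that share a replicate number could be compared directly, as differences in log2(CPM + 0.5). CASP8 was higher with IFNγ in all 3 numbers, by 1.17 to 2.72 in I against C and by 1.13 to 2.03 in DI against D. FAS was higher by 2.16 to 2.92 and by 1.91 to 2.50, so its low values in replicate 2 moved both sides of the difference. TNFRSF10D was lower in all 3 numbers, by values from −2.05 to −1.63 in I against C and from −1.36 to −0.93 in DI against D. CFLAR was higher with IFNγ in all 3 numbers as well, by 0.37 to 0.71 and by 0.20 to 0.27, although its groups overlapped. TNFRSF10B was higher in 3 of 3 numbers in I against C and in 2 of 3 in DI against D. The pseudocount of 0.5 CPM is close to the CASP8 and FAS levels without IFNγ, so these differences understate theirs.

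**Figure D4:**
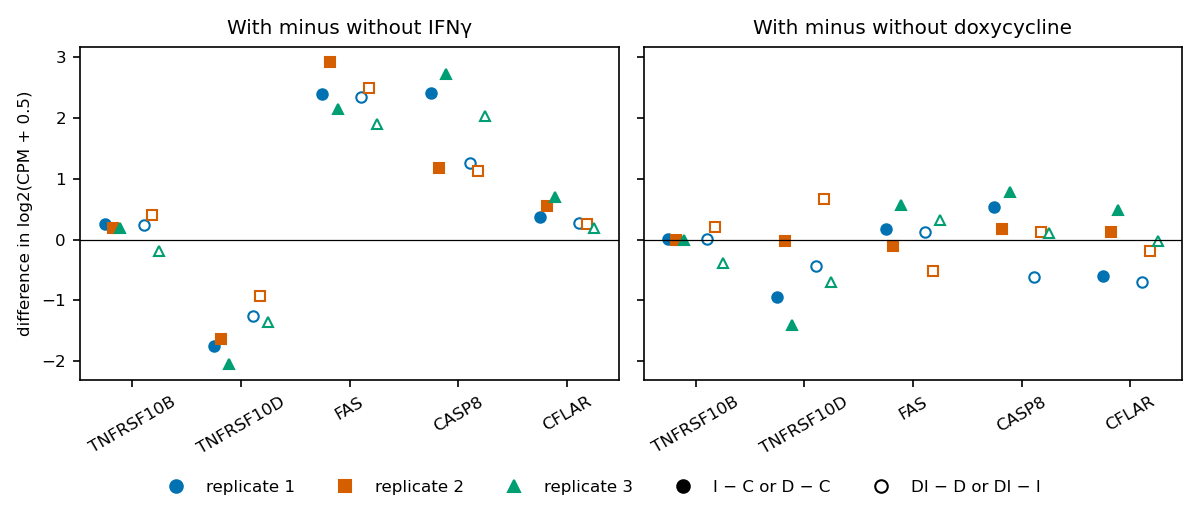
Differences in log2(CPM + 0.5) between libraries of the same replicate number, with minus without IFNγ (left) and with minus without doxycycline (right). Colors and symbols give the replicate number, filled points the difference against or within the groups without the second agent (I minus C, D minus C), and open points those with it (DI minus D, DI minus I). FAS and CASP8 lie above 0 and TNFRSF10D below 0 in all 6 differences with IFNγ, while with doxycycline all 3 points lie on one side of 0 only for TNFRSF10D (below) and CASP8 (above) in D minus C and for CFLAR (below) in DI minus I.

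The comparison D vs C asked whether doxycycline, and with it the hairpin, changed the members in untreated cells. No member passed the threshold by edgeR (0 of 5, against 1.23% of all genes tested), 1 had an unadjusted p under 0.05, against 14.2% of all genes tested, and DESeq2 called 0, against 6.48% of genes with an adjusted p, and gave none for CASP8 and CFLAR. The member with an unadjusted p under 0.05 was TNFRSF10D, with 19.8 ± 6.74 CPM in C and 10.8 ± 1.46 CPM in D (SD, n = 3), a log2 fold change of −0.87 (SE 0.31, 95% interval −1.55 to −0.18) and adjusted p = 0.227 by edgeR. Its adjusted p was 0.0816 to 0.350 over the other alternatives and 0.152 to 0.572 when single libraries were left out. This comparison shares the C and D libraries with those on which TNFRSF10D was picked, so its test is not independent of that choice. Without TNFRSF10D, no member had an unadjusted p under 0.05 by edgeR, and CASP8 was the only member whose groups did not overlap. CASP8 had a log2 fold change of 0.97 (SE 0.52, 95% interval −0.16 to 2.11, edgeR adjusted p = 0.435). The CPM of these 2 genes did not overlap between C and D, against 19.2% of all genes tested. FAS (0.54, SE 0.77), CFLAR (−0.14, SE 0.96) and TNFRSF10B (0.00, SE 0.19, 95% interval −0.42 to 0.42) did not pass.

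The comparison DI vs I asked the same in cells given IFNγ. No member passed by edgeR (0 of 5, against 0.67% of all genes tested), 0 had an unadjusted p under 0.05 (12.2% of all genes tested did), and DESeq2 called 0, against 4.76% of genes with an adjusted p, and gave none for CFLAR. The log2 fold changes were −0.17 for TNFRSF10D (SE 0.32, 95% interval −0.87 to 0.53), −0.16 for CASP8 (SE 0.45, −1.16 to 0.83) and 0.05 for FAS (SE 0.68, −1.44 to 1.55). TNFRSF10B (−0.03, SE 0.19) and CFLAR (−0.47, SE 0.94) did not pass either. The I and DI libraries are also among those on which TNFRSF10D was picked, so its test here is not independent of that choice. The FAS interval takes in a log2 difference of 1 in either direction. With the replicate number as a block, the FAS value was −0.08 (SE 0.38). No member's DI and I groups were apart, which 16.6% of all genes tested were.

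The interaction compared the DI vs D difference with the I vs C difference, and asked whether the response to IFNγ depended on doxycycline. The test called 0 of 4 members, and 0% of all genes tested, by edgeR, with 0 members at an unadjusted p under 0.05 (0.625% of all genes tested) and 0 called by DESeq2 (0.0127% of genes with an adjusted p). The largest fitted value among them was that of CASP8, whose log2 difference with IFNγ was smaller with doxycycline by −1.14 (SE 0.68, 95% interval −2.64 to 0.37, edgeR adjusted p = 1). The interval takes in 0, and the CASP8 counts without IFNγ that enter it were 2 to 14 per library. FAS was at −0.49 (SE 1.02), CFLAR at −0.33 (SE 1.35) and TNFRSF10B at −0.03 (SE 0.27). The TNFRSF10D value of 0.70 (SE 0.44) rests on the comparisons it was picked on and has no test.

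The members also varied with the replicate number. Over the 12 libraries, with group means removed, log2(CPM + 0.5) of TNFRSF10B correlated at −0.77 with that of FAS and FAS at −0.65 with CFLAR (Pearson's r, a description over libraries that share groups and numbers). With group means kept, FAS correlated at 0.88 with CASP8, and TNFRSF10D at −0.88 with CASP8 and −0.81 with FAS. With group means removed these were 0.12, −0.21 and 0.02, so these correlations lay mostly between groups. TNFRSF10D was picked on its difference with IFNγ, which enters both of its values with group means kept. TNFRSF10B was highest in replicate 2 in all 4 groups, which was so of 1 replicate number or another for 30.9% of all genes tested. FAS and CFLAR were lowest in 1 replicate number in all 4 groups, against 32.1% of all genes tested.

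The genes whose levels followed TNFRSF10D most closely over the 12 libraries, among 13959 genes with a mean of at least 1 CPM, were LINC00641 (Pearson's r 0.92), DANCR (0.89), RPL23 (0.88), IMP4 (0.88) and MSI2 (0.88). With group means removed these were 0.47, 0.12, −0.22, 0.39 and 0.71. The likeness thus lay mostly between groups, except for MSI2, where much of it remained within groups. LINC00641 was lower by a fitted −1.64 in I vs C and −1.01 in DI vs D on the log2 scale. It was taken for its likeness to a gene picked on lower counts with IFNγ, so its own fall is no separate result. For TNFRSF10B the closest were TRIM7 (0.95), ZNF613 (0.90), TSPY26P (0.89), ZBTB1 (0.88) and AGTPBP1 (0.88), and here the values with group means removed were 0.96, 0.90, 0.88, 0.86 and 0.89. The likeness to TNFRSF10B was therefore within groups, between libraries of different replicate number.

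Other genes of the death receptor pathway were taken from 4 lists written from general knowledge. Of 10 other death ligands and receptors, 5 were tested, and TNFRSF1A, the main TNF receptor, rose in both comparisons with IFNγ. It had 27.9 ± 4.47 CPM in C and 88.9 ± 19.9 CPM in I, a log2 fold change of 1.67 (SE 0.25, edgeR adjusted p = 0.00331), and 30.3 ± 6.35 and 87.4 ± 23.9 CPM in D and DI (1.53, SE 0.25, edgeR adjusted p = 0.00701). The FAS ligand gene FASLG, TNFSF15 and TNFRSF11B were at 0 in every library. The median log2 fold change of the 5 tested genes was −0.30 in I vs C and −0.07 in DI vs D, beside −0.01 for all genes tested in both.

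Of 9 adaptors and kinases, 8 were tested, and CYLD rose in both comparisons with IFNγ. CYLD, a deubiquitinase of the TNF receptor complex, went from 32.4 ± 4.01 to 68.8 ± 3.53 CPM (log2 fold change 1.09, SE 0.11, edgeR adjusted p = 0.000186) and from 31.3 ± 2.64 to 50.9 ± 2.66 CPM with doxycycline (0.70, SE 0.11, edgeR adjusted p = 0.00610, or 0.0535 with only the libraries of D and DI in the model). MLKL, the effector of necroptosis, had 0 counts in every C and D library, 22, 31 and 12 counts in I, and 7, 10 and 8 in DI. It reached the filter's level in 3 libraries of I, 1 of DI and 0 without IFNγ, so it was tested only because it was high with IFNγ, and no p-value is given for it. Set against a floor of 3 counts over the 3 libraries of a group, its level was at least 19.7-fold higher in I than in C and at least 7.84-fold higher in DI than in D. RIPK3, the kinase upstream of MLKL, was at 0 in every library. RIPK1 had a log2 fold change of 0.75 in I vs C and passed the threshold with the replicate number as a block (edgeR adjusted p = 0.0155) and by DESeq2 (adjusted p = 0.00486), but not without the block (0.0669). In DI vs D RIPK1 had 0.50 (SE 0.18, edgeR adjusted p = 0.451) and was called neither with the block nor by DESeq2. FADD, the adaptor of caspase 8, had 10.7 ± 1.31 CPM in C and 9.95 ± 0.687 CPM in I and was not called.

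The 6 executioner and mitochondrial genes reported, CASP6, CASP9, BID, APAF1, CYCS and DIABLO, were all tested, and neither edgeR nor DESeq2 called any of these 6 in I vs C or DI vs D, with 0 at an unadjusted p under 0.05 by edgeR. The executioner caspase gene CASP6 had a log2 fold change of −0.56 in D vs C, from 11.1 ± 0.471 CPM in C to 7.59 ± 0.738 CPM in D. It passed only with the replicate number as a block (edgeR adjusted p = 0.0367, against 0.227 without it and 0.100 by DESeq2). The block called 2200 of 15828 genes in this comparison.

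Of 5 inhibitors, 4 were tested. XIAP, which blocks active caspases, rose in I vs C from 49.8 ± 3.16 to 68.0 ± 5.19 CPM, a log2 fold change of 0.45 (SE 0.10, edgeR adjusted p = 0.0410). This call was lost when scaled by library size alone, without the filter or with only the libraries of C and I (adjusted p up to 0.126). It was also lost in the fits without 1 library, unless that library was D replicate 2 or I replicate 3 (adjusted p from 0.0383 to 0.202). In DI vs D XIAP had 0.23 (SE 0.10, edgeR adjusted p = 0.725). BIRC2, BIRC3 and PEA15 passed in none of the comparisons, and TNFAIP3 was below the filter.

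In I vs C the median log2 fold change was 0.05 for the 8 tested adaptors and kinases (MLKL among them), −0.06 for the 6 executioner and mitochondrial genes and 0.42 for the inhibitors, and in DI vs D these medians were 0.16, −0.02 and 0.30, beside −0.01 for all genes tested in both. Across the 4 lists, no gene passed in D vs C, DI vs I or the interaction by edgeR without a block. With the replicate number as a block, EDA2R, a receptor of the TNF family, passed in D vs C (0.50, edgeR adjusted p = 0.0467), where the block called 2200 of 15828 genes. CYLD passed in DI vs I with the block (−0.43, edgeR adjusted p = 0.00612, or 0.00776 by DESeq2). In that comparison the block called 1658 of 15828 genes, and DESeq2 called 4.76% of genes with an adjusted p.

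**Figure D5:**
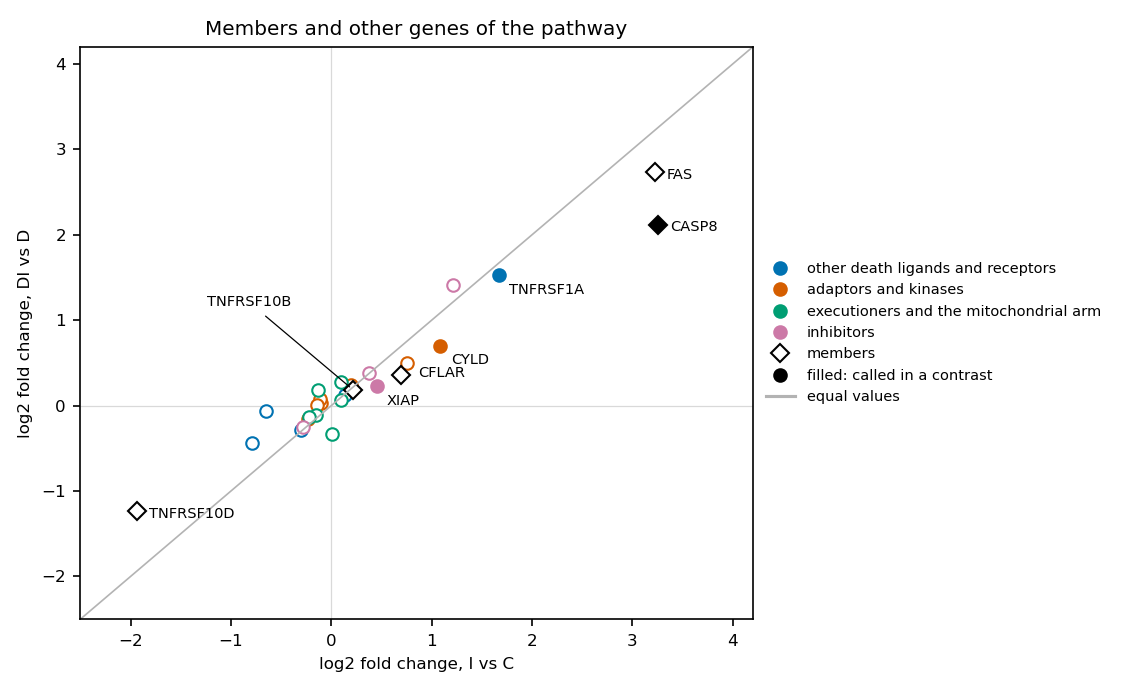
Log2 fold changes in I vs C (horizontal) and DI vs D (vertical) of the 5 tested members (diamonds) and of the tested genes reported from 4 pathway lists (circles, colored by list), with filled symbols for genes called in either comparison by edgeR. MLKL is left out because its groups without IFNγ are at 0. TNFRSF1A, CYLD and XIAP are the filled circles, TNFRSF1A at 1.67 and 1.53, and TNFRSF10D lies farthest to the lower left at −1.94 and −1.24.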

How the data were processed

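RNA was extracted from SK-N-DZ cells and sequenced as paired 150-base Illumina reads, per the labels. The authors deposited whole-number counts per gene, and the aligner, counting tool and genome build are not given in the sources used here. The submitters' processing notes name DESeq2 without a version. The table's 12 columns named for these samples were used, and another 18 per-sample columns, whose names the labels do not explain, were not. The 3 deposited tables of the authors' own comparisons (fold changes and p-values) were not used.

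Counts were scaled by TMM, and 15828 of 43769 genes passed edgeR's filterByExpr (minimum count 10). These were tested in 1 quasi-likelihood model of the 4 groups over 12 libraries (edgeR 4.0.16, limma 3.58.1, R 4.3.3), two-sided, with Benjamini-Hochberg adjustment over all genes tested and a threshold of 0.05. CPM divides counts by the TMM-scaled library size. Intervals for fold changes are at 95%, and floors cover counting error alone because no molecular identifiers were used. Positions are from GENCODE release 29, in which all 43769 identifiers were found, and Python 3.11.15 searched the RefSeq promoter windows. The code was first tested on simulated data.

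The study's methods do not state the test used for these libraries, and the labels share replicate numbers without saying what they mark. Deviations from group means correlated at 0.321 to 0.839 between libraries of different groups that share a number (18 pairs). Where the numbers differ they correlated at −0.663 to 0.183 (36 pairs). Libraries that share a number thus deviated alike, but the main model has no term for the number, so its p-values leave this pairing out. The replicate number as a block is an alternative, given where it changes a call. Replicates of a group differed by more than sampling noise (chi-square per gene 19.8 to 85.0). The other alternatives were DESeq2's size factors, library size alone, no filter, DESeq2 1.42.0, only the libraries compared, and leaving out each library.

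Named genes are the 9 members, those of 4 pathway lists called in a comparison (with some uncalled ones chosen after their values were seen), ARID1A and IRF1, and the 5 genes most correlated with TNFRSF10D and with the highest member. The members and lists were chosen with earlier results of these data known. Some genes of the pathway and marker lists and of the label checks are not reported here, and the lists' counts, medians and sums leave them out.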

Additional observations from a re-analysis of the deposited data

How the results depend on the processing

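The number of members called in I vs C was 1, and it was 2 without the filter on low counts, by DESeq2, with only the libraries compared and with the replicate block, and 1 to 2 when single libraries were left out. In DI vs D it was 0, and it was 2 by DESeq2 and with the replicate block, and 0 to 1 when single libraries were left out. The genes added were FAS in I vs C and FAS and CASP8 in DI vs D, as given with those results with the share of all genes called under each setting. The fits without single libraries called 262 to 364 genes in all in I vs C and 210 to 279 in DI vs D, beside 350 and 273 with all libraries. The block changed no other call of a member. Why the calls differ was not tested. In D vs C, DI vs I and the interaction the number of members called was 0 under every alternative that was run, and the interaction could not be fitted with only the libraries compared.

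Several differences that did not pass the threshold changed sign. TNFRSF10B in D vs C was 0.088 with library size alone, 0.0011 with only the libraries compared and 0.0012 with the replicate block, and in DI vs I it was 0.066 with library size alone. FAS in DI vs I was −0.079 with the replicate block. When single libraries were left out, log2 values ran from −0.060 to 0.35 for TNFRSF10B and from −0.29 to 1.07 for CFLAR in DI vs D. In D vs C they ran from −0.10 to 0.095 for TNFRSF10B, from −0.13 to 1.07 for FAS and from −0.85 to 0.26 for CFLAR. In DI vs I they ran from −0.28 to 0.13 for TNFRSF10B, from −0.42 to 0.023 for TNFRSF10D, from −0.14 to 0.35 for FAS and from −0.52 to 0.027 for CASP8. In the interaction they ran from −0.27 to 0.13 for TNFRSF10B, from −1.01 to 0.18 for FAS and from −0.99 to 0.37 for CFLAR.

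Depth limits TNFSF10, TNFRSF10A, TNFRSF10C and CASP10, which had at most 14 counts in a library, and the levels of CASP8, FAS and CFLAR without IFNγ.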
